A study of Mus musculus with 18 samples.

Results

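Replication licensing loads the helicase that will unwind DNA onto the origins of replication before S phase, so that each origin can start once per cell cycle. The genes described here encode that machinery: Mcm2, Mcm3, Mcm4, Mcm5, Mcm6 and Mcm7, the subunits of the MCM helicase ring; Cdc6 and Cdt1, which load the ring at origins; Cdc45, which joins the loaded ring to form the active helicase; and Mcm10, which acts when origins fire. Of the 10 genes listed by name, 9 were read, out of 19505 genes on the array with 1 symbol each; no probe set carried the name Mcm7 in the annotation used, and that gene was not analysed here. Each of the 9 was represented by 1 probe set. Many of these genes are known targets of E2F transcription factors, and in bone marrow they are known from cycling precursors of the blood lineages.

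Total RNA of 18 mice was measured, 1 array per mouse: 4 NeuT and 4 BALB/c mice of 24 weeks, and 5 NeuT and 5 BALB/c mice of 12 weeks. As background, the transgene of NeuT mice is an activated form of rat Erbb2 (HER2/neu) under the mouse mammary tumour virus promoter, and the mice develop mammary tumours; the labels place the 24-week NeuT mice at a late and the 12-week NeuT mice at an early stage of tumour formation, and call both tumour-bearing. BALB/c mice were the controls, so a transgene effect and a tumour effect cannot be told apart. All preparations were labelled as mesenchymal stromal cells of the bone marrow, obtained from femurs and tibias by depleting, with magnetic beads, cells that carry CD45, Ter119, CD11b, CD11c, CD3, Gr1 or B220.

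The arrays were alike in scale, with medians of 8.43 to 8.56 on the log2 scale over all genes, the lowest being BALB/c 24-week replicate 1. The 3 arrays that correlated least with the rest came from NeuT mice (24-week replicate 1 and 12-week replicate 4) and from a BALB/c mouse (24-week replicate 3). Of 9 listed markers of stromal cells 8 were measured, and each had a mean log2 signal in every group under 10.46, the 95th percentile of the negative control probe sets, from 5.36 for Lepr to 10.22 for Vcam1. Of all genes 82.1% had a mean under that bar, so a marker under it is not shown to be absent. Group means of the marker lists were 13.40 to 13.70 for early neutrophil precursors, 11.35 to 11.86 for erythroid cells and 11.12 to 11.43 for megakaryocytes. Those for T and NK cells, 8.93 to 9.54, lay under the bar. Those for maturing neutrophils, monocytes and B-cell precursors lay on both sides of it. In such a bulk sample fewer cells of a type and less RNA per cell cannot be told apart.

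The stretches printed next show the E2F-type motif upstream of the licensing genes, because E2F factors are known regulators of these genes. The motif was searched as TTTCCCGC, TTTGGCGC, TTTCGCGC and TTTGCCGC on both strands in the 250 bases before each gene start in RefSeq's table (GRCm38.p6), and was chosen with the results known. Of the 9 genes read, 8 had a promoter in that table, and 3 of these held a match, Mcm5, Mcm6 and Cdc6; over all 32851 promoters of the same length 1.86% did. Capitals mark the matches. In Mcm5 and in the first site of Mcm6 a forward and a reverse match overlap and are printed as 1 run.
Cdc6, chr11:98907983-98908050, plus strand: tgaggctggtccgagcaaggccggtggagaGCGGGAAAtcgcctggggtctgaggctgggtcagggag
Mcm5, chr8:75109326-75109397, plus strand: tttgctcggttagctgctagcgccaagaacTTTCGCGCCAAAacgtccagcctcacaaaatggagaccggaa
Mcm6, chr1:128359715-128359845, minus strand: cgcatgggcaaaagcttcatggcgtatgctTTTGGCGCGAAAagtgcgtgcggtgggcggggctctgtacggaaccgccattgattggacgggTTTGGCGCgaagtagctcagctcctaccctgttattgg
The Cdc6 match starts 138 bases before the gene start, the matches of Mcm5 153 and 149 bases before it, and the outermost matches of Mcm6 110 and 47 bases before it. A match describes the letters only, and binding was not measured.

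In all 18 arrays Mcm2, Mcm3, Mcm4, Mcm5, Mcm6, Mcm10, Cdc6 and Cdt1 exceeded the 10.46 that marks the upper end of the negative controls. Cdc45 exceeded it on 1 of 5 NeuT 12-week arrays and 1 of 4 BALB/c 24-week arrays and on no other, so its values compare signals close to background. Levels of different probe sets are not set against each other here. Over all arrays the log2 signal of a gene varied by between 0.32 (Mcm10) and 0.76 (Mcm4) from its lowest to its highest array, leaving out Cdc45. The 4 group means of a gene lay within 0.062 (Mcm10) to 0.29 (Cdc6) of each other.

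**Figure D1:**
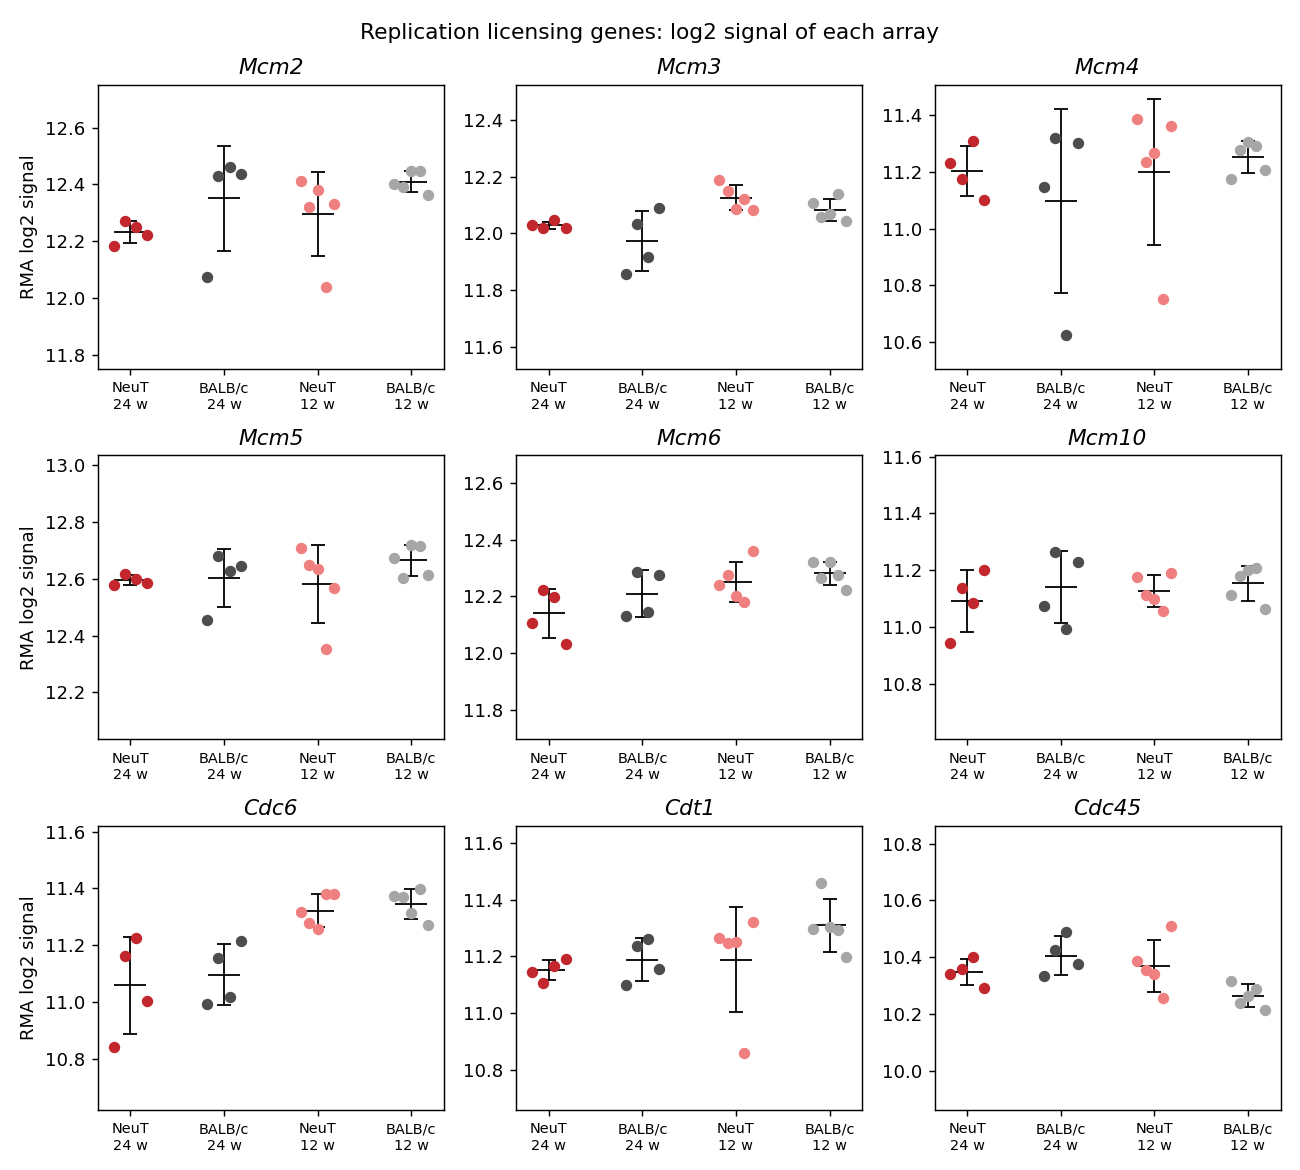
RMA log2 signal (vertical axis, a window of 1 log2 unit in every panel) of the 9 licensing genes in each array, by group; points are arrays, the bar is the group mean and the whiskers its SD (n = 4 at 24 weeks, n = 5 at 12 weeks). NeuT and BALB/c arrays of the same age overlap in every panel, and the 8 arrays of 24 weeks lie below the 10 of 12 weeks for Cdc6.

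The first question was whether licensing genes differ between NeuT and BALB/c preparations at 12 weeks. None of the 9 genes passed the test (limma, Benjamini-Hochberg adjusted p between 0.342 and 0.887, threshold 0.05), while 3.84% of all genes passed at this age, 3.15% higher and 0.687% lower. None of the 9 had an unadjusted p under 0.05, which 21% of all genes had. The log2 differences, NeuT minus BALB/c, ran from -0.12 for Cdt1 to 0.043 for Mcm3 among the 8 genes above the negative controls, and Cdc45 had 0.10; 2 of the 9 were positive and 7 negative. Their median was -0.031, against -0.025 over all genes. The median size of the difference, regardless of sign, was 0.051 for the 9 genes and 0.098 over all genes. Of all genes 82.1% had a mean under the bar of the negative controls, so the sets compared differ in signal level. The 95% intervals together spanned -0.29 to 0.23, which is 0.816-fold to 1.18-fold.

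Among the helicase subunits Mcm2 read 12.41, 12.32, 12.38, 12.04 and 12.33 in the NeuT 12-week arrays, and 12.40, 12.39, 12.45, 12.45 and 12.36 in the BALB/c 12-week arrays. The groups overlapped, and 1 NeuT array, replicate 4, stood below the rest. The difference was -0.11 ± 0.080 (SE, adjusted p = 0.427), and -0.050 without that array. Mcm4 read 11.39, 11.23, 11.27, 10.75 and 11.36 in NeuT mice, against 11.17, 11.28, 11.30, 11.29 and 11.21 in BALB/c mice. The same NeuT array was low, and the difference of -0.051 ± 0.12 (SE, adjusted p = 0.834) was 0.061 without it. Mcm5 read 12.71, 12.65, 12.63, 12.35 and 12.57 in NeuT mice, against 12.67, 12.60, 12.72, 12.72 and 12.61 in BALB/c mice, again with NeuT replicate 4 lowest (difference -0.083 ± 0.070, SE, adjusted p = 0.519, and -0.026 without that array). Mcm3 averaged 12.13 ± 0.045 in NeuT and 12.08 ± 0.039 in BALB/c mice (SD, n = 5 each). Mcm6 averaged 12.25 ± 0.071 in NeuT and 12.28 ± 0.041 in BALB/c mice, with a difference of -0.031 (adjusted p = 0.814). The helicase subunits read here thus gave differences of both signs, none past the threshold.

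Of the loading factors, Cdt1 read 11.26, 11.25, 11.25, 10.86 and 11.32 in the NeuT 12-week arrays, and 11.29, 11.46, 11.30, 11.29 and 11.20 in the BALB/c 12-week arrays. Replicate 4 was again the low NeuT array, and the difference of -0.12 ± 0.079 (SE, adjusted p = 0.392) was -0.038 without it. Cdc6 averaged 11.32 ± 0.057 in NeuT and 11.35 ± 0.051 in BALB/c mice (SD, n = 5 each), a difference of -0.023 (adjusted p = 0.887). Mcm10 averaged 11.13 ± 0.056 in NeuT and 11.15 ± 0.062 in BALB/c mice. Cdc45 read 10.39, 10.36, 10.34, 10.26 and 10.51 in NeuT mice, against 10.32, 10.24, 10.26, 10.29 and 10.21 in BALB/c mice. Its difference of 0.10 ± 0.062 (SE), between signals mostly under the bar of the negative controls, did not pass (adjusted p = 0.342).

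At 24 weeks the same comparison again gave no licensing gene past the threshold (adjusted p between 0.596 and 0.983) in the limma fit, while 1.4% of all genes passed. None of the 9 had an unadjusted p under 0.05, beside 13.2% of all genes, and none had groups that did not overlap, beside 6.72%. The log2 differences ran from -0.12 for Mcm2 to 0.10 for Mcm4, 2 positive and 7 negative, with a median of -0.038, against -0.00014 over all genes. The median size regardless of sign was 0.055, beside 0.089 over all genes. The 95% intervals together spanned -0.30 to 0.38, or 0.810-fold to 1.30-fold. Mcm2 read 12.18, 12.27, 12.25 and 12.22 in the NeuT 24-week arrays, and 12.08, 12.43, 12.46 and 12.44 in the BALB/c 24-week arrays. All NeuT values lay under 3 of the BALB/c values and above the remaining one, replicate 1, the array with the lowest median over all genes. The difference was -0.12 ± 0.089 (SE, adjusted p = 0.596), and -0.21 (adjusted p = 0.252) without that array. Mcm4 read 11.23, 11.17, 11.31 and 11.10 in NeuT mice, against 11.15, 11.32, 10.63 and 11.30 in BALB/c mice. Here BALB/c replicate 3 was low, and the difference of 0.10 ± 0.13 (SE, adjusted p = 0.777) was -0.053 without it. Mcm5 averaged 12.60 ± 0.017 in NeuT and 12.60 ± 0.10 in BALB/c mice (SD, n = 4 each), with a difference of -0.0061. Mcm3 and Mcm6 gave 0.055 and -0.069, Mcm10 -0.049, Cdc6 -0.038, Cdt1 -0.037 and Cdc45 -0.057.

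**Figure D2:**
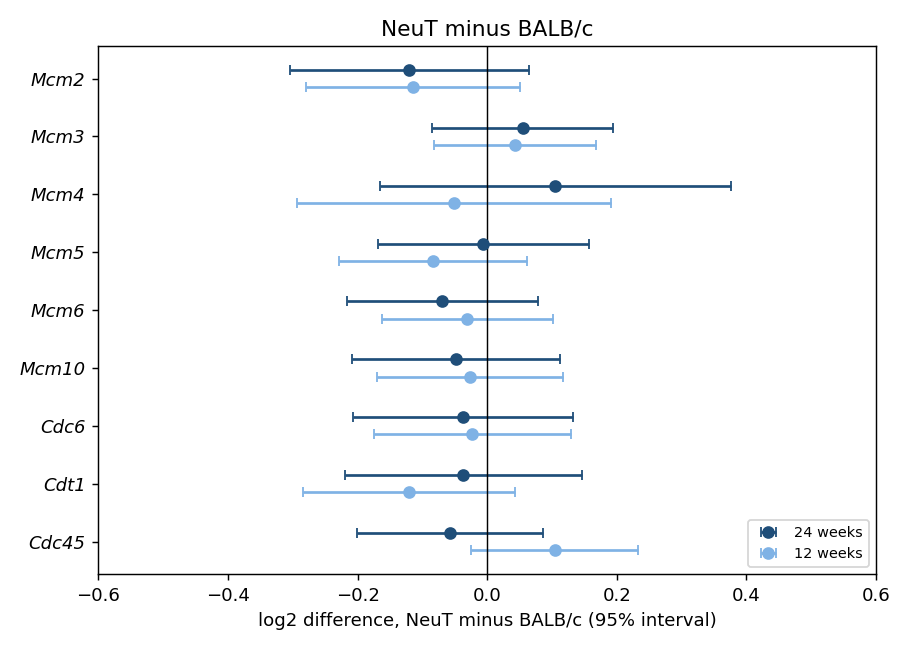
Log2 difference, NeuT minus BALB/c (horizontal axis), of each licensing gene at 24 weeks (dark) and at 12 weeks (light); bars are 95% intervals of the limma fit. Every interval includes 0, and all lie between -0.30 and 0.38.

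The change of the NeuT effect with age was tested as the difference of the effects, 24 minus 12 weeks. None of the 9 genes passed (adjusted p between 0.806 and 0.998), beside 0.0103% of all genes. None had an unadjusted p under 0.05 in limma, beside 6.5% of all genes. The estimates ran from -0.038 for Mcm6 to 0.16 for Mcm4 among the 8 genes above the negative controls, and Cdc45 had -0.16. The 95% intervals spanned -0.36 to 0.52, so this comparison is less precise than those at 1 age. For Cdc45 the NeuT effect was -0.057 at 24 weeks and 0.10 at 12 weeks.

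Markers of other cell types were read in the same arrays. Of 10 markers of maturing neutrophils 6 rose in NeuT mice at 24 weeks and 5 at 12 weeks, beside 1.4% and 3.84% of all genes called at these ages, and none fell. Of 5 monocyte markers 1 rose at 24 weeks and 4 at 12 weeks. Of 6 markers of T and NK cells 1 rose and 3 fell at 24 weeks, and 1 rose at 12 weeks. Of 5 markers of early neutrophil precursors none passed at 24 weeks and 1 rose at 12 weeks. Of the 8 stromal markers 1 rose at 24 weeks and none passed at 12 weeks, and none of 7 erythroid and 4 megakaryocyte markers passed at either age. For maturing neutrophils the mean log2 signal was 10.71 to 11.71 in NeuT and 10.21 to 10.73 in BALB/c arrays at 24 weeks, and 10.42 to 11.79 in NeuT and 10.20 to 10.87 in BALB/c arrays at 12 weeks. Markers of B-cell precursors, 8 measured of 10 listed and none past the threshold, averaged 9.83 to 10.82 in NeuT and 10.82 to 11.00 in BALB/c arrays at 24 weeks, and 9.42 to 10.82 in NeuT and 10.62 to 10.89 in BALB/c arrays at 12 weeks. The mean of the 9 licensing genes was 11.49 to 11.59 in NeuT and 11.46 to 11.65 in BALB/c arrays at 24 weeks. At 12 weeks it was 11.44 to 11.68 in NeuT and 11.58 to 11.67 in BALB/c arrays. The part of these markers in the licensing values was not tested.

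Age was compared within each mouse model. Age cannot be told apart from any batch of processing, which the labels do not give. Neither model gave a licensing gene past the threshold in limma; an unadjusted p under 0.05 was found for 1 of the 9 in NeuT mice (12.6% of all genes) and for 2 in BALB/c mice (15.3%). In NeuT mice, 24 minus 12 weeks, the adjusted p lay between 0.148 and 0.997, with 0.0359% of all genes called. In BALB/c mice it lay between 0.115 and 0.958, with 0.579% called. The differences were negative for 7 of 9 genes in NeuT mice and for 8 of 9 in BALB/c mice, with medians of -0.037 and -0.072 beside -0.0031 and -0.018 over all genes. Regardless of sign the median size was 0.037 in NeuT and 0.109 in BALB/c mice, beside 0.079 and 0.089 over all genes. In each model 2 genes had ages that did not overlap, Cdc6 and Mcm3 in NeuT mice and Cdc6 and Cdc45 in BALB/c mice; over all genes the ages did not overlap for 5.08% in NeuT and 6.95% in BALB/c mice.

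Cdc6, the ATPase that helps to place the MCM ring at origins, had the largest age difference of the 9 genes in both models. It read 10.84, 11.16, 11.22 and 11.00 in NeuT 24-week arrays, against 11.32, 11.28, 11.26, 11.38 and 11.38 in NeuT 12-week arrays. In BALB/c mice it read 10.99, 11.16, 11.02 and 11.22 at 24 weeks, against 11.37, 11.37, 11.31, 11.40 and 11.27 at 12 weeks. All 24-week values lay below all 12-week values, within and across the models. The difference was -0.26 ± 0.078 (SE, adjusted p = 0.148) in NeuT mice, and -0.25 ± 0.078 (SE, adjusted p = 0.115) in BALB/c mice. Mcm3 had differences of -0.097 (adjusted p = 0.580) in NeuT and -0.11 (adjusted p = 0.435) in BALB/c mice. Cdc45 read, in BALB/c mice, 10.33, 10.42, 10.49 and 10.38 at 24 weeks against 10.32, 10.24, 10.26, 10.29 and 10.21 at 12 weeks, a difference of 0.14 ± 0.066 (SE, adjusted p = 0.310). In NeuT mice the value for Cdc45 was -0.021 (adjusted p = 0.939).

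**Figure D3:**
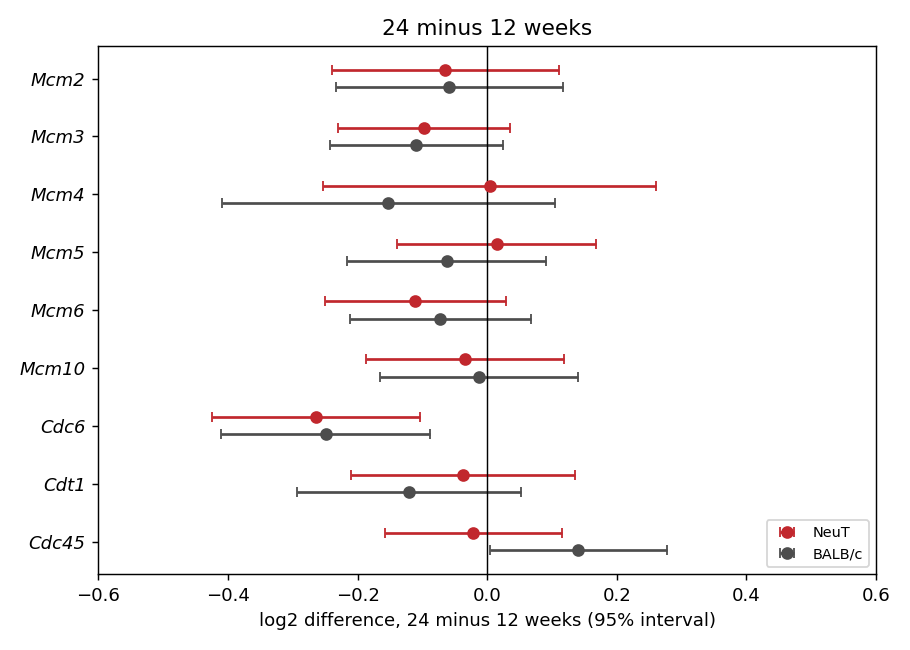
Log2 difference, 24 minus 12 weeks (horizontal axis), of each licensing gene in NeuT (red) and BALB/c (grey) mice; bars are 95% intervals of the limma fit, not adjusted for the number of genes. The intervals of Cdc6 lie below 0 in both models, and that of Cdc45 above 0 in BALB/c mice, yet none passed after adjustment over all genes.

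After these values were seen, a contrast of 24 minus 12 weeks over both models was added, which rests on the same arrays and is no independent evidence. In it Cdc6 passed (-0.26 ± 0.055, SE, or 0.837-fold, adjusted p = 0.0119, n = 8 and 10), the only 1 of the 9 genes to do so, beside 1.82% of all genes called lower and 3.96% called in either direction. An unadjusted p under 0.05 was found for 2 of the 9, Cdc6 and Mcm3, and for 20% of all genes. Its 95% interval was -0.37 to -0.14. Mcm3 had -0.10 (adjusted p = 0.202), Mcm6 -0.092 (adjusted p = 0.291) and the other 6 genes values between -0.079 and 0.060. The median size regardless of sign was 0.074 for the 9 genes and 0.070 over all genes. Over all genes 0.338% had 24-week arrays that did not overlap with the 12-week arrays, and Cdc6 was the 1 licensing gene among them. The Cdc6 call held without the 3 arrays that correlated least (-0.20, adjusted p = 0.0309) and in each of 18 fits without 1 array, in which the adjusted p lay between 0.00650 and 0.0378.

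Marker levels at both ages were as follows. The mean log2 signal of 7 erythroid markers (10 were listed) was 10.91 to 11.76 in NeuT and 11.43 to 11.67 in BALB/c arrays at 24 weeks, against 11.46 to 11.80 in NeuT and 11.81 to 11.98 in BALB/c arrays at 12 weeks. None of these 7 passed in the added contrast, and their median difference was -0.30. Of 5 markers of early neutrophil precursors 1 was called higher at 24 weeks, beside 2.14% of all genes, and their median was 0.092. No marker of maturing neutrophils, monocytes, B-cell precursors, megakaryocytes, T and NK cells or stromal cells passed. The medians of these lists ran from -0.078 (megakaryocytes) to 0.054 (monocytes). The 11 mitotic genes measured averaged 11.35 to 11.48 in NeuT and 11.27 to 11.47 in BALB/c arrays at 24 weeks, against 11.47 to 11.55 in NeuT and 11.41 to 11.54 in BALB/c arrays at 12 weeks. The part of these markers and mitotic genes in the Cdc6 value was not tested.

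The rest of the replication machinery, E2F and pocket proteins, and mitotic genes were read from 9 lists, 86 genes measured of 89. For NeuT against BALB/c none of the 86 passed at 24 weeks, and at 12 weeks 1 rose, 1 fell and 84 did not pass; the medians were 0.014 at 24 weeks and -0.018 at 12 weeks. An unadjusted p under 0.05 in limma was found for 4 of them at 24 weeks (4.65%, beside 13.2% of all genes) and for 23 at 12 weeks (26.7%, beside 21%), shares from which nothing is read. Pole2, a subunit of DNA polymerase epsilon, rose at 12 weeks, with 10.30, 10.25, 10.27, 10.56 and 10.21 in NeuT mice against 9.87, 9.55, 9.91, 10.05 and 9.78 in BALB/c mice. The groups did not overlap, which was so for 7.46% of all genes. Of these values only that of NeuT replicate 4 exceeded 10.46, the bar of the negative controls, so signals close to background are compared. The difference was 0.49 ± 0.11 (SE, 1.40-fold, adjusted p = 0.0202), and the call ended without NeuT 12-week replicate 4 (0.42, adjusted p = 0.0708) and without BALB/c 12-week replicate 2 (0.42, adjusted p = 0.0771). E2f2, an E2F transcription factor known from erythroid precursors, fell at 12 weeks, with 12.19, 12.29, 12.23, 11.76 and 12.47 in NeuT mice against 12.73, 12.70, 12.59, 12.78 and 12.54 in BALB/c mice. The groups again did not overlap, and the difference was -0.48 ± 0.13 (SE, 0.716-fold, adjusted p = 0.0337). That call ended in 6 of 10 fits without 1 array, those without NeuT 12-week replicates 1, 3 or 4 (-0.48, -0.49 and -0.38) or BALB/c 12-week replicates 1, 2 or 4 (-0.47, -0.47 and -0.45), and without the 3 arrays that correlated least (-0.38, adjusted p = 0.0560). The erythroid marker mean, given above, did not overlap between NeuT and BALB/c mice of 12 weeks, though the gap was narrow (11.80 against 11.81). No erythroid marker passed. The means of early neutrophil precursor, monocyte and megakaryocyte markers did not overlap at 12 weeks either, the first of these being higher in NeuT mice, as were monocytes, and megakaryocytes lower. The part of any of these markers in the E2f2 value was not tested.

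In the other 7 lists no gene passed in any of the 5 planned comparisons, and the 2 genes with the smallest p of each are given as values. In the list of origin recognition genes, whose products mark the origins for licensing, Orc6 and Orc1 had differences of -0.30 and -0.30 for 24 minus 12 weeks in NeuT mice (adjusted p = 0.143 and 0.186). In the list of licensing control Fzr1, an activator of the anaphase-promoting complex in G1, had -0.32 for age in BALB/c mice (adjusted p = 0.102), and Mcmbp, an MCM binding protein, 0.22 for NeuT against BALB/c at 12 weeks (adjusted p = 0.0617). Among firing factors and helicase partners Donson had -0.33 for age in BALB/c mice (adjusted p = 0.0992) and Tipin -0.27 for age in NeuT mice (adjusted p = 0.338). The MCM paralogues Mcm8 and Mcm9, which are not part of the licensing ring, had 0.13 for age in BALB/c and -0.091 for age in NeuT mice (adjusted p = 0.476 and 0.794). Rfc4, a clamp loader subunit, had -0.27 for age in NeuT mice (adjusted p = 0.192), and Lig1, the replicative DNA ligase, -0.25 for age in BALB/c mice (adjusted p = 0.132). Rrm2, a subunit of ribonucleotide reductase, had -0.25 for age in BALB/c mice (adjusted p = 0.143), and Dut 0.16 for NeuT against BALB/c at 12 weeks (adjusted p = 0.215). Of the mitotic genes Mki67 and Ccnb2 had -0.31 and -0.28 for age in BALB/c mice (adjusted p = 0.0690 and 0.0739).

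In the added age contrast 9 of the 86 genes were lower at 24 weeks, beside the 1.82% of all genes called lower, and none was higher, beside 2.14%; the median was -0.077, and -0.010 over all genes. They were Orc1 (-0.27) and Orc6 (-0.26) of the origin recognition complex, Donson (-0.30), Pcna (-0.19), the sliding clamp gene, the transcription factor gene E2f8 (-0.22), Rb1 (-0.28), which encodes the retinoblastoma protein, and the mitotic genes Mki67 (-0.22), Ccnb2 (-0.21) and Birc5 (-0.19). All Orc1 values, 9.40 to 10.09, lay under 10.46, the bar of the negative controls, so that call compares signals close to background. Those of Donson, 10.24 to 11.08, lay on both sides of it. For Pcna, as for Cdc6, all 24-week arrays lay below all 12-week arrays, 12.64 to 12.96 against 12.98 to 13.08. The call for Pcna ended in 10 of 18 fits without 1 array, for Rb1 in 10, Birc5 in 8, Orc1 and Ccnb2 in 6 each, E2f8 in 5, Mki67 in 4, and Orc6 and Donson in 2 each. All 9 calls ended without NeuT 24-week replicate 1 or without NeuT 24-week replicate 4; without the first, Donson had -0.26 (adjusted p = 0.0541), Orc6 -0.23 (0.0637) and Pcna -0.17 (0.104). The largest log2 difference of any of them, that of Donson, corresponds to 0.812-fold. In the added contrast 38 of the 86 genes had an unadjusted p under 0.05 in limma (44.2%, beside 20% of all genes). For age within a model these were 18 in NeuT (20.9%, beside 12.6%) and 21 in BALB/c mice (24.4%, beside 15.3%). These shares were not tested.

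**Figure D4:**
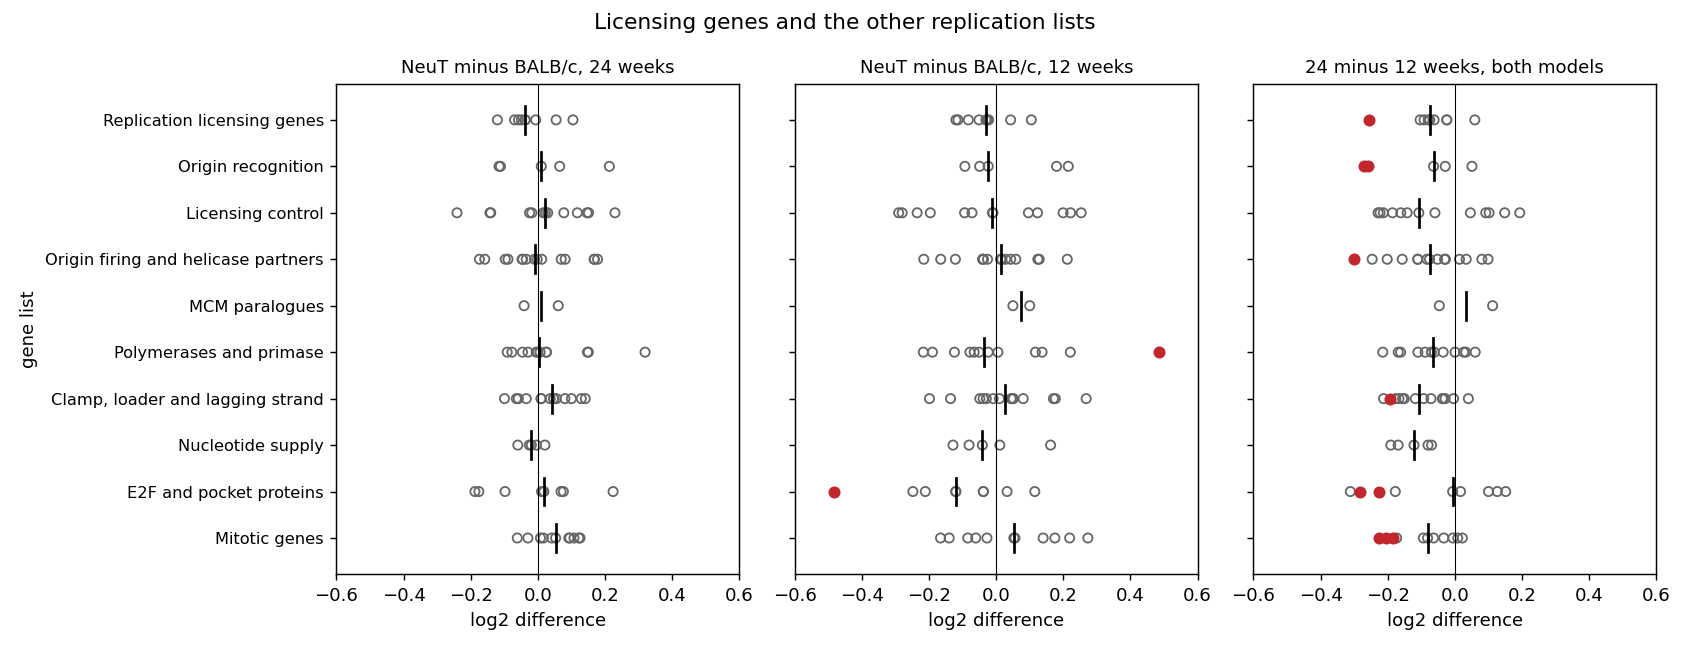
Log2 differences (horizontal axis) of the 9 licensing genes and 86 measured genes of 9 lists of other replication, E2F, pocket protein and mitotic genes. Panels show NeuT minus BALB/c at 24 weeks (left) and 12 weeks (middle). The right panel shows 24 minus 12 weeks over both models, added after the values were seen. Filled red points passed at an adjusted p under 0.05, open points did not, and the black bar is the median of a list; the only licensing gene that passed is Cdc6 in the right panel.

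The licensing genes were also compared among themselves, as deviations of each array from its group mean. Over the 36 pairs of genes and 18 arrays Pearson's r, given as a description, ran from -0.048 (Cdc6 with Cdt1) to 0.92 (Mcm2 with Mcm5), with a median of 0.46. Without the 3 arrays that correlated least, it ran from 0.089 to 0.89, with a median of 0.51. Mcm2 and Mcm5 kept 0.89 over these 15 arrays, while Mcm2 and Cdt1 had 0.70 over all and 0.29 over the 15. The arrays share the normalisation and whatever differs between preparations, so these values do not single out the licensing genes. In NeuT 12-week replicate 4 the mean of the 9 genes was 11.44, the lowest of all arrays, and 7 genes had their lowest value of the group there. Cdc6 was not among them, with 11.38. The maturing neutrophil markers averaged 11.79 in that array, the highest of all arrays, and the erythroid markers 11.46, the lowest of the 12-week arrays. The T and NK cell markers averaged 9.51 there, the highest of the 12-week arrays, and the B-cell precursor markers 10.82, the highest of its group. Of the other lists, polymerases and primase had their highest mean of the group there, 11.15. Origin recognition (10.49), licensing control (11.08), origin firing and helicase partners (10.46) and E2F and pocket proteins (10.75) had their lowest. The remaining lists, among them the mitotic genes with 11.51, were neither highest nor lowest of the group. The part of any of these markers or lists in the licensing values of that array was not tested. In BALB/c 24-week replicate 1, the array with the lowest median over all genes, 7 genes had their lowest value of the group too. In BALB/c 12-week replicate 5 there were also 7. The matching shares over all genes were not counted, so these counts are not read as particular to the licensing genes.

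**Figure D5:**
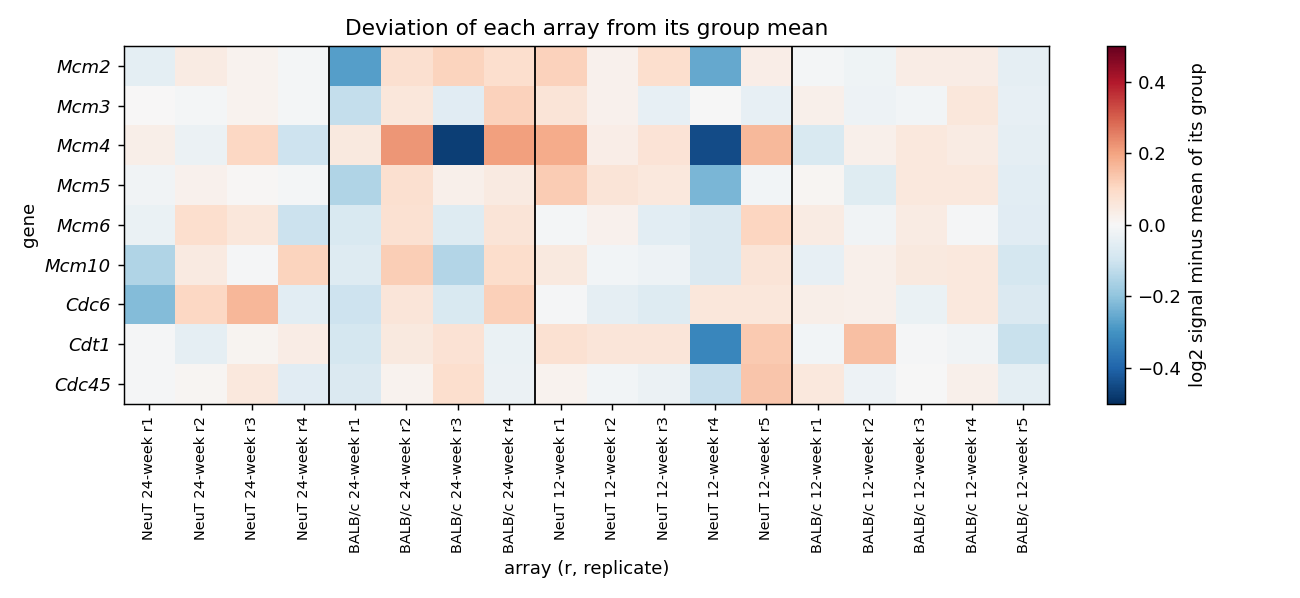
Log2 signal of each licensing gene (rows) in each array (columns) minus the mean of its group; blue is below and red above the group mean, and vertical lines separate the groups. NeuT 12-week replicate 4 is low for Mcm2, Mcm4, Mcm5 and Cdt1, and BALB/c 24-week replicate 3 for Mcm4, with 10.63.

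The 8 other genes whose deviations were most like the mean of the 9 licensing genes were Usp7, a deubiquitinating enzyme gene (r = 0.96 over 18 arrays), Trappc10 (0.92), Hnrnpk (0.91), Atg4b (0.91), Ccdc90b (0.895), Dhx8 (0.89), Usp15 (0.89) and Tnfaip2 (0.89). Over the 15 arrays that remain without the 3 that correlated least, these values were 0.75 to 0.93. These 15 arrays are among those used to choose the 8 genes. None of the 8 is among the 86 genes of the other lists, which are few beside the 19505 genes, so nothing is read from that.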

How the data were processed

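Labelled total RNA was hybridised to 1 array per mouse, and replicates are different mice. The deposited values are log2 signals per probe set, made by the authors with RMA (background correction, quantile normalisation, summarisation) and the Transcriptome Analysis Console, per the submitters' processing notes; their versions and build: not given in the sources used here. Of 29129 probe sets 19572 had 1 gene symbol and none had several; for 55 genes with several probe sets the one with the highest mean was kept, leaving 19505 genes. Dim genes were kept. Precision is limited by how many arrays there are.

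For each gene, group means were fitted over all 18 arrays with limma 3.58.1 in R 4.3.3 (14 residual and 8.68 prior degrees of freedom). Tests were two-sided, adjusted by Benjamini-Hochberg over all genes, threshold 0.05. The fit was tested on simulated data. Members, lists and rules were chosen with earlier results of these data known. The rule names all members, up to 4 genes per list past the threshold or else the 2 with the smallest p, and the 8 genes most like the members. Alternatives were other normalisations, a dim-gene filter, means of probe sets, other variance moderation, array weights, fits on the compared groups, and fits without arrays. Figures used matplotlib 3.10.9 in Python 3.11.15.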

Additional observations from a re-analysis of the deposited data

Results flagged for a closer look

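In 4 of the 36 combinations of gene and group examined, 1 array lay far from the others of its group by Dixon's test; chance gives about 1 in 20. Mcm2 read 12.04 in NeuT 12-week replicate 4, against 12.32 to 12.41 in the other 4 arrays. Mcm4 read 10.75 in the same array, against 11.23 to 11.39, and Cdt1 read 10.86 there, against 11.25 to 11.32. This array is 1 of the 3 that correlated least with the others. Mcm2 read 12.08 in BALB/c 24-week replicate 1, against 12.43 to 12.46 in the other 3 arrays; that array had the lowest median over all genes.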

How the results depend on the processing

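No licensing gene passed in the NeuT comparisons, their difference or age within a model under any processing tried; the smallest adjusted p was 0.0617, for Cdc6 with age in BALB/c mice with array weights. Of 396 member differences recomputed under other processing 29 changed sign, and of 486 without 1 array 40, all on values that did not pass before or after. For NeuT against BALB/c at 12 weeks Mcm3 became -0.00036 with cyclic loess, and Mcm4 0.011 with array weights and 0.061 without the 3 arrays that correlated least. At 24 weeks Mcm3 became -0.015 after quantile normalisation and -0.030 with cyclic loess, Mcm4 -0.061 with array weights and -0.062 without the 3 arrays, Mcm5 0.0080 and Cdc6 0.0086 without the 3 arrays. Without 1 array the values ran from -0.098 to 0.061 for Mcm4 at 12 weeks, and at 24 weeks from -0.053 to 0.18 for Mcm4, -0.056 to 0.020 for Mcm5, -0.098 to 0.00092 for Mcm10 and -0.093 to 0.034 for Cdc6; Cdc45 with age in NeuT mice ran from -0.050 to 0.014.

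The count of all genes called moved more. At 12 weeks it was 749, 2088 with array weights, and 230 (without BALB/c 12-week replicate 2) to 1363 (without NeuT 12-week replicate 5) without 1 array. At 24 weeks it was 274, 122 after quantile normalisation, 119 with cyclic loess, 577 with array weights, 1 on the groups compared alone, 15 without the 3 arrays, and 8 (without NeuT 24-week replicate 1) to 641 (without its replicate 2) without 1 array. The difference of effects called 2 genes, 4 after quantile normalisation, 1 with median centring, 4 with trend and robust variances, 10 with array weights, 0 without the 3 arrays, and 1 to 3 without 1 array. Age in NeuT mice called 7, then 2 (quantile), 4 (cyclic loess), 1 (median centring), 13 (dim-gene filter), 13 (trend and robust), 72 (array weights), 0 (groups compared), 0 (without the 3 arrays) and 1 (without NeuT 12-week replicate 4) to 177 (without NeuT 24-week replicate 2) without 1 array. Age in BALB/c mice called 113, then 214 (quantile), 186 (cyclic loess), 220 (dim-gene filter), 2375 (array weights), 183 (groups compared), 1277 (without the 3 arrays) and 0 (without BALB/c 24-week replicate 1) to 589 (without its replicate 3) without 1 array. The added age contrast called 773, 2893 with array weights and 278 (without NeuT 24-week replicate 1) to 1680 (without BALB/c 24-week replicate 3) without 1 array. In the added contrast the call, not the direction, was lost without the 3 arrays for Orc1 (-0.21), Pcna (-0.14) and Rb1 (-0.23), after quantile normalisation for Pcna (-0.14), E2f8 (-0.19), Mki67 (-0.17) and Birc5 (-0.14), and with cyclic loess for Birc5 (-0.16). The share of calls that were higher in NeuT mice at 12 weeks was 82.1%, and 69.1% after quantile normalisation; at 24 weeks it was 84.3% and 68.0%. The causes were not tested. No paired analysis was possible because the labels give no pairing. They give no replicate numbers either, and those used here follow the order of the samples within each group. Age and any processing batch cannot be told apart.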
